A study of Saccharomyces cerevisiae with 11 samples.

Results

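The genes described here are 10 regulators of Start, the point in late G1 at which a budding yeast cell commits to a new division. They are the G1 cyclin genes CLN1, CLN2 and CLN3, the inhibitor gene WHI5, the transcription factor genes SWI4, SWI6 and MBP1, the Pho85 cyclin genes PCL1 and PCL2, and SIC1, which encodes an inhibitor of the S-phase kinase. They were chosen by name, and a probe set was used where its only annotated gene was one of the 10. Each gene had 1 such probe set, and all 10 were among the 5597 genes tested. The RNA came from the laboratory yeast CEN.PK113-7D, a prototroph of genotype MATa MAL2-8c SUC2, grown without oxygen and limited by glucose. The baseline group was 3 independent chemostats, whose cells grew at 0.025 per hour. The other 8 arrays came from 2 independent retentostats, in which a filter keeps the cells in the vessel while medium still flows in. They were sampled 2, 9, 16 and 22 days after the switch to the filter, at specific growth rates of 0.0084, 0.0024, 0.0011 and 0.00063 per hour, with 2 arrays a day. All groups share the strain, the absence of oxygen and the glucose limitation, and the retentoston days share their pair of cultures.

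In the textbook account, the cyclin Cln3 bound to the kinase Cdc28 acts first and relieves the inhibitor Whi5 from the factor SBF, made of Swi4 and Swi6. SBF and the related factor MBF, made of Mbp1 and Swi6, then switch on the late G1 genes, among them CLN1, CLN2, PCL1 and PCL2. Cln1 and Cln2 with Cdc28 drive budding and mark Sic1 for destruction, which frees the kinases that start DNA synthesis. When nutrients run out, yeast cells mostly stop before Start with unbudded cells.

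The values are linear array intensities. For tests, values under a floor of 12 were set to 12 and log2 values were fitted with limma, with p-values adjusted by the Benjamini-Hochberg method over all genes; "rose" and "fell" are used only where the adjusted p was under 0.05. The median log2 change of all genes against the chemostat was 0.04 on day 2, 0.06 on day 9, 0.14 on day 16 and 0.23 on day 22, so changes below are given relative to that median, while the tests used the values without this shift. On day 22, 74.7% of the genes called were higher, while quantile normalization gave 54.6% and scaling to 1 median 50.9%. The ratio of the actin 5' to 3' control signal, which falls as RNA breaks down, ranged between 0.766 and 0.796 in the chemostats, between 0.709 and 0.748 on day 2 and between 0.669 and 0.734 on day 9. It was 0.736 and 0.472 on day 16 and 0.571 and 0.341 on day 22. TBP, also measured at its 5' and 3' ends, gave 0.548, 0.562 and 0.466 in the chemostats. Its values were 0.443 and 0.604 on day 2 and 0.489 and 0.461 on day 9. On day 16 they were 0.563 and 0.568, above every chemostat. On day 22 they were 0.537 and 0.476, within the chemostat range. What lowered the actin ratio on the late arrays was not tested. Of the mating type genes, the 6 a-specific ones summed to between 21837.7 and 32545.7 on day 22 and to between 16013.8 and 21026.6 in the chemostats. Most of this sum was MFA1 and MFA2. STE2, MFA2 and AGA2 were higher on day 22 than in every chemostat, and MFA1 and BAR1 overlapped the chemostats. STE6 was lower, between 243 and 322.3 on day 22 against 329.2 to 344.4 in the chemostats. The 4 alpha-specific ones, none of them at 0, summed to between 2301.8 and 2684.9 on day 22 and to between 351.2 and 415.1 in the chemostats. Each of the 4 was higher on day 22, but most of the day 22 sum was MF(ALPHA)1, between 1733.4 and 2049.2. MF(ALPHA)2 lay between 8.4 and 13.6 in the chemostats, around the floor. The part of these differences in the results below was not tested. In RNA from whole cultures, fewer cells in a cell cycle phase and less of a transcript per cell cannot be told apart. Levels of different genes are not set against each other, because each probe set has its own brightness.

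**Figure D1:**
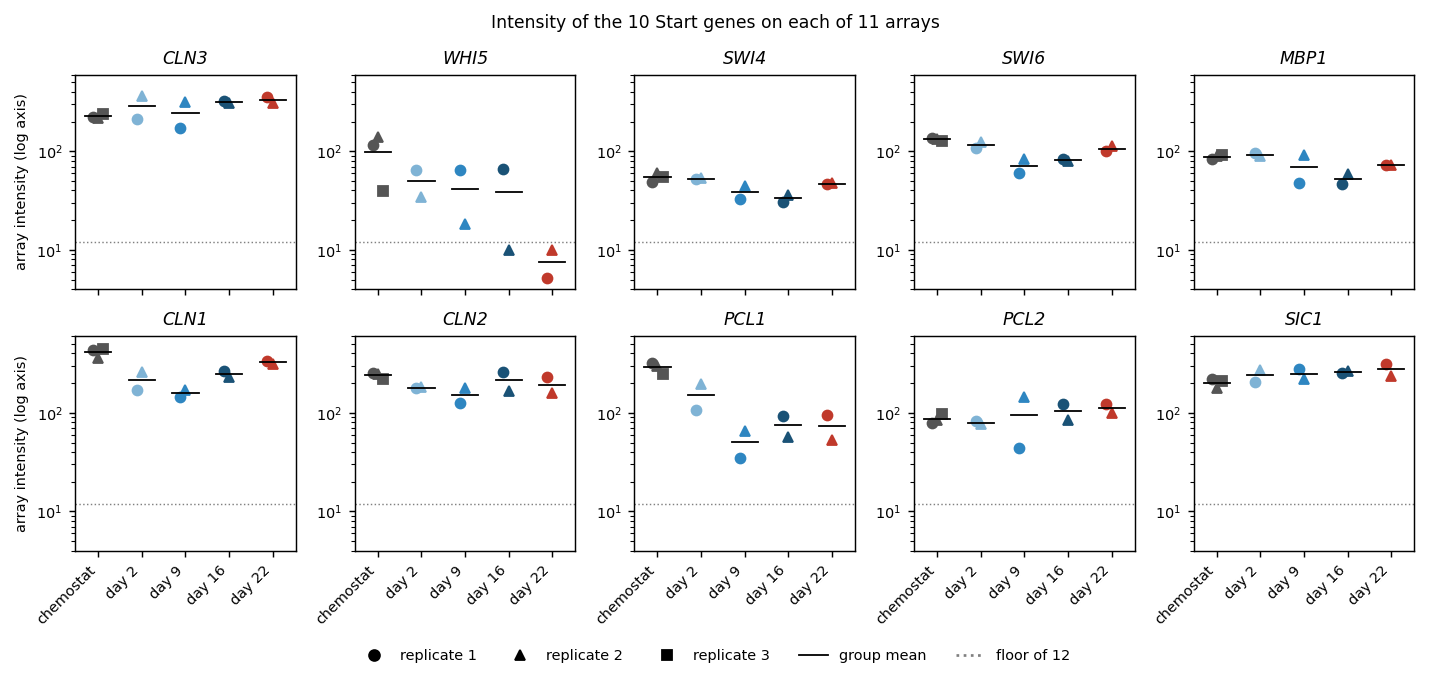
Intensity (log axis) of each of the 10 genes on the 11 arrays; points are arrays, their shapes give the replicate number, bars are group means and the dotted line is the floor of 12. PCL1, CLN1 and SWI6 lie below every chemostat on all 8 retentostat arrays, and WHI5 lies under the floor on both arrays of day 22.

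CLN3, which encodes the cyclin that acts first at Start, did not pass the test in any comparison. Its intensities were 225.1, 219.2 and 238.5 in the chemostats, 214.7 and 361.1 on day 2, 170.9 and 316.9 on day 9, 325.9 and 310.7 on day 16, and 357.8 and 310.1 on day 22. Every array of days 16 and 22 was above every chemostat, while on days 2 and 9 1 array was below and 1 above the chemostat range. On day 22 the log2 change was 0.32 ± 0.27 (SE, adjusted p = 0.119), with a 95% interval from -0.27 to 0.91. On day 9 it was -0.03 (95% interval -0.62 to 0.56). With only the arrays compared in the fit, CLN3 passed on day 16 (adjusted p = 0.0170) and on day 22 (adjusted p = 0.0154).

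WHI5, which encodes the inhibitor of SBF, had the widest span of the 10 genes. Its intensities were 116.6, 138.1 and 39.4 in the chemostats, 64.8 and 34.6 on day 2, 63.8 and 18.4 on day 9, 66.6 and 10.0 on day 16, and 5.2 and 10.0 on day 22. The groups overlapped on days 2, 9 and 16, where replicate 2 was the lower array each time, and the chemostats themselves differed by over 3-fold. Both arrays of day 22 were under the floor, so there WHI5 was at least 7.16-fold lower than the geometric mean of the chemostats (adjusted p = 0.011; measured means 7.6 ± 3.39, SD, n = 2, on day 22 and 98.0 ± 51.9, n = 3, in the chemostats). The call ended without day 22 replicate 1 (adjusted p = 0.0738) or without day 22 replicate 2 (adjusted p = 0.0875), without the 2 arrays of lowest actin ratio (adjusted p = 0.0743), with a floor of 50 (adjusted p = 0.085) and with the actin ratio as a covariate (adjusted p = 0.428). The relative changes at the earlier days were -0.90 ± 0.75, -1.39 ± 0.75 and -1.74 ± 0.75 (SE; adjusted p = 0.617, 0.182 and 0.11). With the replicate number as a block WHI5 passed on day 9 (-1.96, adjusted p = 0.0291) and on day 16 (-2.31, adjusted p = 0.0157). It also passed on day 16 without chemostat replicate 3 (adjusted p = 0.0449) or without day 16 replicate 1 (-3.02, adjusted p = 0.0284).

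Of the genes of the SBF and MBF subunits, SWI4 and SWI6 fell on days 9 and 16 and MBP1 on day 16, and none of the 3 passed the F test over the retentostat days. SWI6, the subunit common to both factors, had intensities of 135.1, 133.9 and 126.0 in the chemostats, 107.8 and 125.0 on day 2, 59.6 and 82.6 on day 9, 82.9 and 80.2 on day 16, and 100.2 and 112.0 on day 22. All 8 retentostat arrays were below all chemostats. SWI6 fell on day 9 (-0.97 ± 0.17, SE, adjusted p = 0.0025) and on day 16 (-0.83 ± 0.17, adjusted p = 0.0089). On day 22 it was at -0.55 ± 0.17 (adjusted p = 0.16), which passed with both other scalings, the quantile one (adjusted p = 0.0107) and that to 1 median (adjusted p = 0.016). The day 9 call of SWI6 held in each of the 23 alternatives tried. Its day 16 call ended without day 16 replicate 2 (adjusted p = 0.0609) and without the 2 arrays of lowest actin ratio (adjusted p = 0.0777).

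SWI4, the DNA-binding subunit of SBF, had a narrower span. Its intensities were 48.4, 59.8 and 54.9 in the chemostats, 51.8 and 53.1 on day 2, 33.1 and 44.5 on day 9, 30.3 and 36.4 on day 16, and 46.4 and 47.7 on day 22. The arrays of days 9, 16 and 22 lay below every chemostat, and those of day 2 within their range. SWI4 fell on day 9 (-0.56 ± 0.18, SE, adjusted p = 0.0447) and on day 16 (-0.84 ± 0.18, adjusted p = 0.0091), and was at -0.44 ± 0.18 on day 22 (adjusted p = 0.372; called after quantile normalization). The day 9 call was made in 10 of 22 alternatives, and ended among others without any one of the chemostats or of the day 2 or day 22 arrays and without day 9 replicate 1. That of day 16 was made in 20 of 22 and ended with a floor of 50 and without day 16 replicate 1.

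MBP1, the DNA-binding subunit of MBF, had intensities of 83.3, 90.3 and 91.0 in the chemostats, 95.8 and 89.2 on day 2, 47.5 and 90.6 on day 9, 46.0 and 59.2 on day 16, and 71.9 and 71.8 on day 22. The 2 arrays of day 9 stood apart, with replicate 2 inside the chemostat range and replicate 1 far below it. MBP1 fell on day 16 only (-0.89 ± 0.24, SE, adjusted p = 0.0277), a call that ended without any one of the chemostats, without either day 16 array, with the actin ratio as a covariate and without the 2 arrays of lowest ratio. Without day 9 replicate 2 it also passed on day 9 (-0.93, adjusted p = 0.005). On day 22 both arrays were below the chemostats (-0.53 ± 0.24, adjusted p = 0.341).

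CLN1 and CLN2 are the cyclin genes switched on at Start. CLN1 had intensities of 430.4, 359.0 and 440.1 in the chemostats, 168.7 and 260.0 on day 2, 143.7 and 171.9 on day 9, 268.1 and 229.2 on day 16, and 336.3 and 315.0 on day 22. The lowest level was on day 9, and the arrays of day 22 lay above all those of days 2, 9 and 16, though still below every chemostat. CLN1 fell on day 2 (-1.0 ± 0.20, SE, adjusted p = 0.0452), on day 9 (-1.44 ± 0.20, adjusted p = 0.00067) and on day 16 (-0.86 ± 0.20, adjusted p = 0.0168). On day 22 it was at -0.56 ± 0.20 (adjusted p = 0.216; called with both other scalings, with an adjusted p of 0.0319 for the quantile one and 0.0404 for that to 1 median).

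The call of CLN1 on day 9 was made in each of 23 alternatives, that of day 16 in 19 and that of day 2 in 9. On day 2 it was lost without any one of the chemostats, without day 2 replicate 1 and without any one of the day 16 or day 22 arrays. On day 16 it was lost when chemostat replicate 1 or day 16 replicate 2 was left out and in both alternatives that use the actin ratio. Over the 4 retentoston days CLN1 was the member that passed the moderated F test (adjusted p = 0.0433). A contrast of day 22 against day 9, added after these values were seen, gave 0.89 ± 0.22 (SE, adjusted p = 0.046). That call was made in 7 of 23 alternatives and was lost, among others, under both other scalings, with only the arrays compared, with the replicate number as a block, and without any one of the chemostats, of the day 16 or day 22 arrays, or day 9 replicate 1.

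CLN2 had intensities of 252.1, 250.3 and 220.3 in the chemostats, 177.9 and 182.4 on day 2, 125.9 and 179.0 on day 9, 259.4 and 168.2 on day 16, and 228.3 and 159.1 on day 22. It was below every chemostat on days 2 and 9, and on days 16 and 22 replicate 1 was within or above their range while replicate 2 was below it. CLN2 fell on day 9 (-0.74 ± 0.23, SE, adjusted p = 0.0404), a call made in 13 of 23 alternatives and lost, among others, without any one of the chemostats or day 2 arrays and without day 9 replicate 1. The relative changes on days 2, 16 and 22 were -0.46, -0.34 and -0.57 (SE 0.23 each; adjusted p = 0.406, 0.524 and 0.268). The last of these was called after quantile normalization. Among the alternatives the highest CLN2 change was 0.04 on day 16 and 0.21 on day 22, so the sign was not the same in all.

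PCL1 and PCL2 encode cyclins that partner the kinase Pho85 in late G1. PCL1, which fell on 3 of the 4 days, had intensities of 321.2, 301.7 and 249.3 in the chemostats, 106.7 and 196.6 on day 2, 35.2 and 65.5 on day 9, 92.0 and 56.8 on day 16, and 95.3 and 53.4 on day 22. All 8 retentostat arrays were below all chemostats, and every array of days 9, 16 and 22 was below both arrays of day 2. PCL1 fell on day 9 (-2.65 ± 0.36, SE, adjusted p = 5.0e-04), on day 16 (-2.14 ± 0.36, adjusted p = 0.0017) and on day 22 (-2.25 ± 0.36, adjusted p = 0.0014). On day 22 its mean was 74.4 ± 29.6 (SD, n = 2), against 291 ± 37.2 (n = 3) in the chemostats. On day 2 it was at -1.04 ± 0.36 (adjusted p = 0.201).

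These 3 calls of PCL1 held with each of the 11 arrays left out in turn. Without the 2 arrays of lowest actin ratio the adjusted p was 0.0518 on day 16 and 0.0503 on day 22. With the actin ratio as a covariate the change on day 22 was -1.25 (adjusted p = 0.184), and the actin ratio on day 22 was lower than in every other group except for 1 array of day 16. Day 22 against day 9 gave 0.41 ± 0.39 (SE, adjusted p = 0.438).

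PCL2 had intensities of 78.7, 84.2 and 96.4 in the chemostats, 82.2 and 77.1 on day 2, 43.7 and 146.2 on day 9, 123.5 and 84.8 on day 16, and 123.9 and 100.5 on day 22. On day 9 1 array was the lowest and the other the highest of all 11. It passed in no comparison, and its change on day 22 was 0.14 ± 0.39 (SE, adjusted p = 0.467; 95% interval -0.72 to 1.0). On day 9 the sign rested on 1 array: without day 9 replicate 1 the change was 0.65 (adjusted p = 0.0488), and without day 9 replicate 2 it was -1.01 (adjusted p = 0.0109).

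SIC1, the inhibitor that holds back the S-phase kinase until Cln1 and Cln2 mark it for destruction, had intensities of 218.7, 177.2 and 210.5 in the chemostats, 206.7 and 273.4 on day 2, 276.7 and 218.5 on day 9, 252.9 and 262.7 on day 16, and 315.4 and 236.5 on day 22. Of the 8 retentostat arrays, 6 were above the highest chemostat and none was below the lowest. It passed in no comparison of days. The change on day 22 was 0.21 ± 0.20 (SE, adjusted p = 0.0932), with a 95% interval from -0.23 to 0.64.

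**Figure D2:**
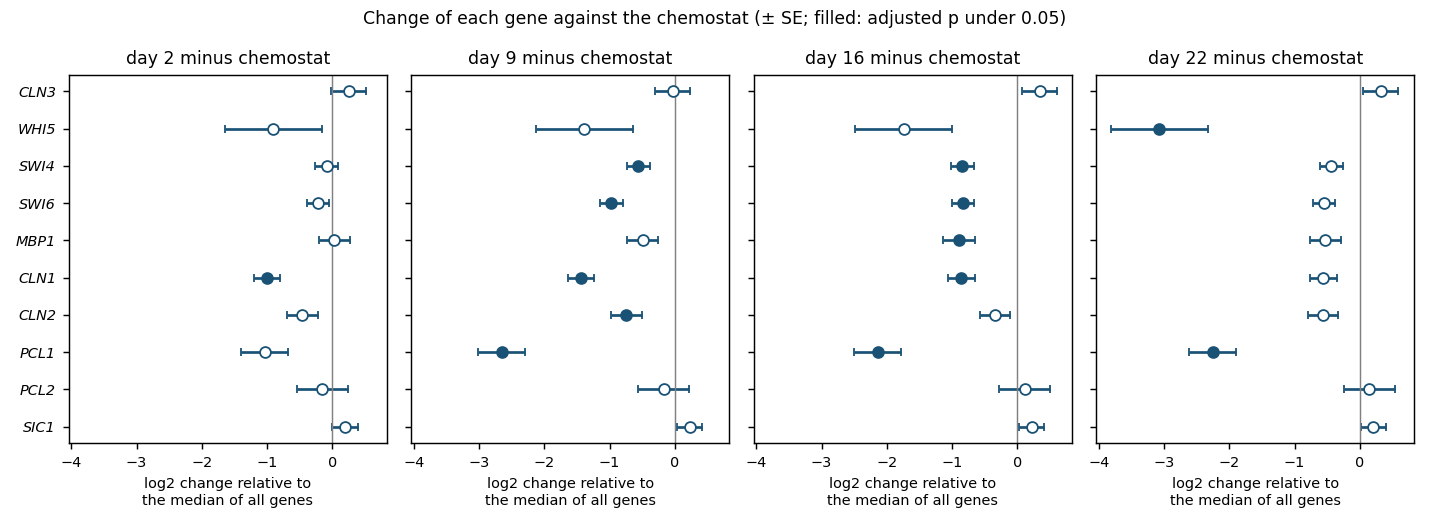
Log2 change of each of the 10 genes on each retentoston day against the chemostat, relative to the median of all genes, with its SE (2 arrays a day, 3 chemostats); filled points have an adjusted p under 0.05. Filled points number 1 on day 2, 5 on day 9, 5 on day 16 and 2 on day 22, and all lie left of 0.

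Counted together, the genes that passed against the chemostat were all lower. On day 2 1 of 10 fell (CLN1), where 0.5% of all genes were called lower and 1.55% in either direction. On day 9 5 of 10 fell (CLN1, CLN2, SWI4, SWI6 and PCL1), against 15.6% of all genes called lower and 38% called in all, and without any one of the chemostats or day 2 arrays the count was 3. On day 16 5 of 10 fell (CLN1, SWI4, SWI6, MBP1 and PCL1), against 12.8% of all genes called lower and 39.4% called in all. Leaving out chemostat replicate 1 made that count 3, leaving out day 16 replicate 2 made it 2, and it was 1 without the 2 arrays of lowest actin ratio.

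On day 22 2 of 10 fell (WHI5 and PCL1), against 10.8% of all genes called lower and 42.6% called in all. That count was 6 after quantile normalization, 4 after scaling to 1 median, 1 without either day 22 array, and 0 both with the actin ratio as a covariate and when its 2 lowest arrays were dropped. None of the 10 was called higher, where 1.05% of all genes were on day 2, 22.4% on day 9, 26.6% on day 16 and 31.8% on day 22. The median change of the 10 was -0.19 on day 2, -0.65 on day 9, -0.84 on day 16 and -0.54 on day 22, relative to a median of 0 for all genes. The 4 comparisons share their chemostat arrays. On day 22 the 95% intervals of CLN1 (-1.01 to -0.11), CLN2 (-1.08 to -0.05) and SWI4 (-0.82 to -0.05), relative to all genes, also lay below 0. So did those of SWI6 (-0.92 to -0.17) and MBP1 (-1.05 to -0.0013). None of these genes passed that day in the main fit, whose test used the values without the shift. The intervals are not adjusted for the number of genes.

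Of the 10 genes, 3 (CLN1, SWI6 and PCL1) were below every chemostat on all 8 retentostat arrays, as were 8.97% of all genes, and none was above on all 8, as were 15.5%. Over the 5 groups, 4 passed the moderated F test (CLN1, SWI4, SWI6 and PCL1; 39.5% of all genes did). Over the 4 retentoston days 1 passed (11.8% of all genes), and between day 22 and day 2 none did (16.7% of all genes did, 13.5% higher and 3.23% lower; by limma, 3 had an unadjusted p under 0.05, CLN1, PCL1 and WHI5, as did 32.8% of all genes). CLN1 was the 1 member called between day 22 and day 9 (1.57% of all genes, of which 1.43% higher and 0.143% lower). The count over the retentoston days was 6 without day 9 replicate 2, and 0 without any one of the chemostats or of the arrays of days 16 and 22.

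Counted by arrays that do not overlap, none of the 10 genes was higher and 4 were lower on day 2 than in the chemostats, where 22.8% of all genes were higher and 16.3% lower. On day 9 none was higher and 5 were lower, against 35.9% and 25.2% of all genes. On day 16 2 were higher and 5 lower, against 41.8% and 24.9%, and on day 22 3 were higher (CLN3, PCL2 and SIC1) and 6 lower, against 46.9% and 21.3%. Between day 22 and day 2, 2 were higher and 4 lower, against 44.2% and 17.3%, and between day 22 and day 9, 3 were higher and 1 lower, against 35.2% and 10.3%.

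The 2 arrays of a day differed more for these genes on day 9 than on the other days. The median absolute log2 difference between the 2 arrays of day 9 was 0.70 over the 10 genes and 0.29 over all genes. It was 0.31 and 0.21 on day 2, 0.31 and 0.21 on day 16, and 0.18 and 0.22 on day 22. On day 9, 8 of the 10 were lower in replicate 1, as were 57.9% of all genes.

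Ratios of 2 genes within an array do not change when the whole array is multiplied by 1 factor, though quantile normalization can change them, and their size has no meaning except between arrays. The log2 ratio of PCL1 to PCL2 lay between 1.37 and 2.03 in the chemostats, was 0.38 and 1.35 on day 2, and lay between -1.16 and -0.31 on the 6 arrays of days 9 to 22. No retentostat array overlapped the chemostats in this ratio. The ratio of CLN1 to CLN3 lay between -0.88 and 0.02 on the retentostat arrays and between 0.71 and 0.94 in the chemostats. It averaged -0.41 on day 2, -0.57 on day 9, -0.36 on day 16 and -0.03 on day 22. The ratio of CLN1 to CLN2 averaged 0.76 in the chemostats, 0.22 on day 2, 0.07 on day 9, 0.25 on day 16 and 0.77 on day 22, so that it was near its chemostat value again on the last day. These ratios were chosen after the values were seen and were not tested.

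**Figure D3:**
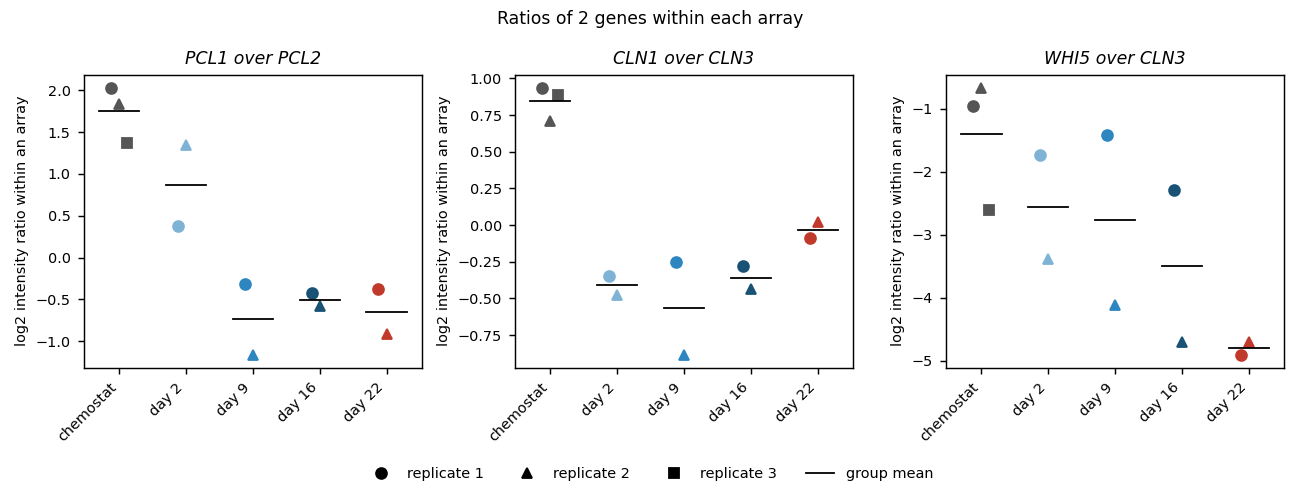
Log2 ratio of 2 genes within each array for PCL1 over PCL2, CLN1 over CLN3 and WHI5 over CLN3, by group; points are arrays, their shapes give the replicate number, and bars are group means. PCL1 over PCL2 and CLN1 over CLN3 are lower on every retentostat array than in every chemostat, and WHI5, set to the floor of 12 where it was below it, overlaps the chemostats on days 2, 9 and 16.

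Expression was also fitted as a straight line on the log2 of the specific growth rate over all 11 arrays. The growth rate fell with every later day and was highest in the chemostats. Growth rate, time and type of culture therefore cannot be told apart in this slope. With positive slopes meaning higher levels at faster growth, relative to the median slope of all genes, PCL1 had a slope of 0.46 ± 0.08 per log2 unit (SE, adjusted p = 0.00086). The slope of WHI5 was 0.49 ± 0.12 (adjusted p = 0.0053), that of SWI6 0.15 ± 0.04 (adjusted p = 0.0454) and that of MBP1 0.15 ± 0.04 (adjusted p = 0.0488). PCL1, SWI6 and MBP1 did not follow the growth rate throughout. For PCL1 the mean was 50.35 on day 9 and 74.35 on day 22, with overlapping arrays. The mean of SWI6 was 71.1 on day 9 and 106.1 on day 22, and that of MBP1 52.6 on day 16 and 71.9 on day 22. The slope of SIC1 was negative and passed (adjusted p = 0.0466), but relative to all genes it was -0.04 with a 95% interval from -0.10 to 0.02. CLN1 (0.13 ± 0.07, adjusted p = 0.295) and SWI4 (0.13 ± 0.04, adjusted p = 0.0507) did not pass. In all, 5 of the 10 passed, 4 with a positive and 1 with a negative slope, against 49.5% of all genes, 14.5% positive and 35.1% negative. SIC1 did not pass under either other scaling, and WHI5 did not with a floor of 50 or in either alternative that uses the actin ratio. With any one of the chemostats, day 2 replicate 1 or either day 16 array left out WHI5 and PCL1 were the 2 that did.

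The other genes of the pathway were taken from lists of genes that act with the 10 or downstream of them. Of 12 textbook SBF targets, 10 fell on day 9, 10 on day 16 and 9 on day 22, where 15.6%, 12.8% and 10.8% of all genes were called lower. None rose, and on day 2 none passed. Their median change was -0.73 on day 2, -1.42 on day 9, -1.14 on day 16 and -1.50 on day 22. Falls on day 22 included TOS6 (-2.54 ± 0.37, SE, adjusted p = 8.1e-04) and TOS2. On day 22 both arrays of TOS2 (1.2 and 4.6) were under the floor, so that it was at least 3.50-fold lower than the geometric mean of the chemostats (adjusted p = 0.003), a call lost with a floor of 50, with the actin ratio as a covariate and without its 2 lowest arrays. SVS1 fell by 1.98 ± 0.26 (adjusted p = 4.8e-04), and GIC1, which helps to polarize the cell for budding, by 1.60 ± 0.21 (adjusted p = 6.8e-04). SVS1 had intensities of 1240.7, 1066.7 and 716.7 in the chemostats, 571.3 and 656.0 on day 2, 274.6 and 351.1 on day 9, 391.4 and 265.8 on day 16, and 329.4 and 261.2 on day 22. All of its retentostat arrays were below all chemostats. The day 22 count was 10 under either other scaling, between 7 and 9 with 1 array left out, 6 without the 2 arrays of lowest actin ratio and 0 with the ratio as a covariate; the day 9 count was 10 in the last 2 of these, where the day 16 count was 3 and 4.

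Of 14 MBF targets tested, 8 fell on day 9, 5 on day 16 and 4 on day 22, beside the same shares of all genes called lower, and none rose. RNR1, the main large subunit of ribonucleotide reductase, had intensities of 1095.7, 1184.1 and 1198.1 in the chemostats, 556.9 and 579.7 on day 2, 193.6 and 336.7 on day 9, 444.5 and 327.5 on day 16, and 490.0 and 288.4 on day 22. It was below every chemostat throughout. RNR1 fell on day 9 (-2.24 ± 0.27, SE, adjusted p = 2.9e-04), on day 16 (-1.74, adjusted p = 0.0012) and on day 22 (-1.86 ± 0.27, adjusted p = 9.7e-04). TOS4 (-1.83), the cohesin subunit gene MCD1 (-1.33) and CDC21, which encodes thymidylate synthase (-0.74), also fell on day 22. The call of CDC21 was lost without chemostat replicate 1 or either day 22 array and in both alternatives that use the actin ratio. The other 10 MBF targets did not pass on day 22 and lay between -0.81 (CDC45) and 0.22 (RAD27), 8 of them below 0. The day 22 count was 7 under either other scaling and 1 with the actin ratio as a covariate.

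Of 19 genes of the Start machinery beyond the 10, 3 rose and 3 fell on day 9, where 22.4% of all genes were called higher and 15.6% lower. On day 22 6 rose and 2 fell, which is close to the 31.8% of all genes called higher and 10.8% called lower on that day. Quantile normalization made the day 22 split 4 and 4, and scaling to 1 median made it 1 and 4. YHP1, a repressor of early cell cycle genes, fell on each of the 4 days, with changes of -0.95 ± 0.15 on day 2 (SE, adjusted p = 0.0191) and -1.81 ± 0.15 on day 22 (adjusted p = 4.2e-05). Its day 2 call was made in 17 of 23 alternatives and was lost when chemostat replicate 1 or 2 or either day 2 array was left out, with only the arrays compared, and without the 2 arrays of lowest actin ratio. SRL3, a relative of WHI5, fell on day 22 (-1.06 ± 0.23, adjusted p = 0.0137), a call lost without chemostat replicate 1, chemostat replicate 2 or either day 22 array. That call was also lost in both alternatives that use the actin ratio. CIP1, which encodes an inhibitor of the G1 cyclin kinase, rose on day 9 (0.48, adjusted p = 0.0268), on day 16 (0.58, adjusted p = 0.0069) and on day 22 (0.47 ± 0.17, adjusted p = 0.007). Its day 22 call was lost with scaling to 1 median, with the actin ratio as a covariate and without day 22 replicate 1. Those of days 9 and 16 were made in 18 and 21 of 23 alternatives.

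CLB5 and CLB6 encode the S-phase cyclins. CLB5 had intensities of 236.2, 192.3 and 240.4 in the chemostats, 270.0 and 282.1 on day 2, 358.1 and 359.4 on day 9, 440.9 and 438.2 on day 16, and 441.8 and 453.0 on day 22, with every retentostat array above every chemostat. It rose on day 9 (0.63, adjusted p = 0.0050), on day 16 (0.85, adjusted p = 6.5e-04) and on day 22 (0.78 ± 0.15, SE, adjusted p = 5.0e-04). CLB6 was dim, between 10.3 and 22.8 in the retentostats and between 20.0 and 26.8 in the chemostats, and did not pass (-0.63 on day 22, adjusted p = 0.329). The kinase gene CDC28 was at 0.30 ± 0.15 on day 22 (adjusted p = 0.0164) and the inhibitor gene FAR1 at 0.43 ± 0.15 (adjusted p = 0.0055). Both calls are on values without the shift of all genes and were lost with scaling to 1 median, without day 22 replicate 2 and in both alternatives that use the actin ratio. That of CDC28 was also lost with quantile normalization and when chemostat replicate 1 was left out. On day 16 FAR1 was at 0.62 (adjusted p = 0.0030), a call made in each of 23 alternatives. CDC28 was at 0.40 on day 16 (adjusted p = 0.0169), a call made in 20 of 23. XBP1, a stress-induced repressor that acts on CLN1, rose on day 9 (1.2 ± 0.35, adjusted p = 0.017) and was at 0.29 ± 0.35 on day 22 (adjusted p = 0.258). Its day 9 call was lost without chemostat replicate 1, without day 9 replicate 1 and with only the arrays compared.

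**Figure D4:**
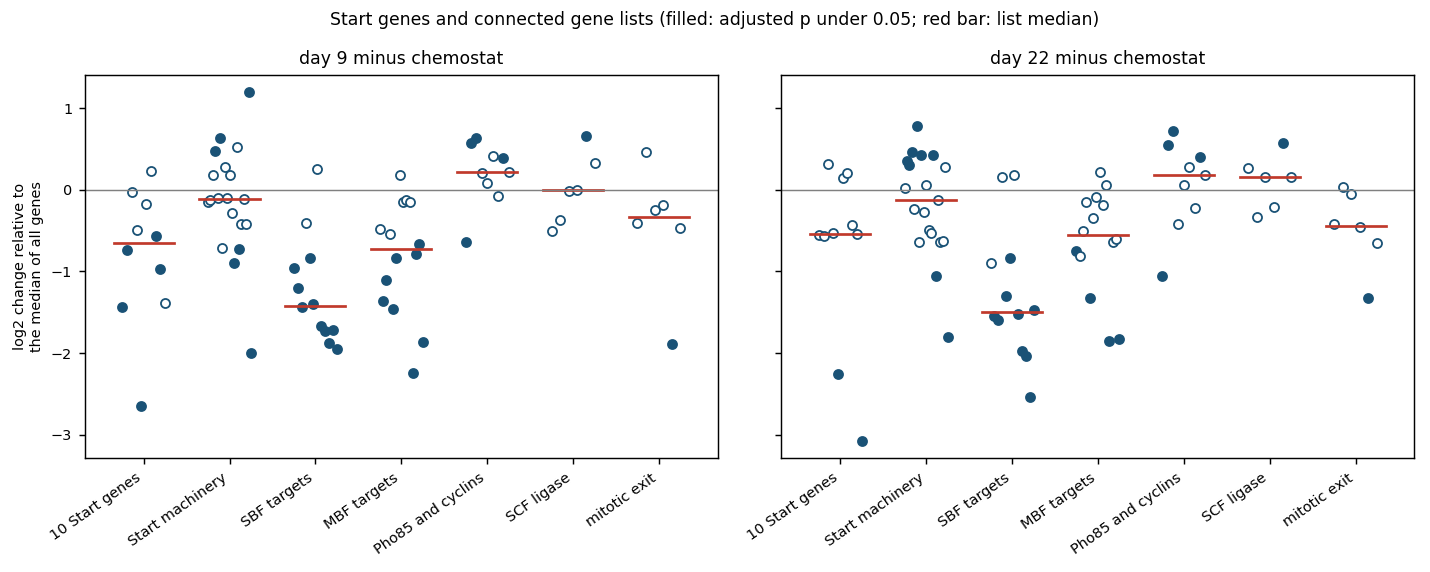
Log2 change of each of the 10 genes and of the genes of 6 lists on day 9 and on day 22 against the chemostat, relative to the median of all genes; each point is a gene, filled where its adjusted p was under 0.05, and red bars are list medians. Of the SBF targets, 10 of 12 fell on day 9 and 9 of 12 on day 22, and their median is -1.42 and -1.50 on those days.

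Of Pho85 and its other cyclins, 9 genes, 3 rose and 1 fell on day 22, close to the shares of all genes given above for that day. PCL5 (0.72 ± 0.19, SE, adjusted p = 0.0026) and PCL10 (0.55 ± 0.17, adjusted p = 0.0045) rose and CLG1 fell (-1.06 ± 0.20, adjusted p = 0.0069), the last not without day 22 replicate 2. PHO80, the cyclin of phosphate signalling, passed at 0.40, but not under either other scaling. With the actin ratio as a covariate, the day 22 calls of PCL10, CLG1 and PHO80 were lost. PHO85 itself was at 0.18. Of the SCF ubiquitin ligase, which marks Sic1 and the G1 cyclins for destruction, 1 of 6 genes rose on day 22, HRT1 (0.58 ± 0.18, adjusted p = 0.0044), where 31.8% of all genes were called higher. The call of HRT1 was lost with the actin ratio as a covariate. Of 6 genes of mitotic exit and SIC1 activation, 1 fell on day 22, SWI5, the activator of SIC1 transcription, where 10.8% of all genes were called lower. SWI5 was at -1.18 ± 0.24 on day 2 (adjusted p = 0.0452) and -1.33 ± 0.24 on day 22 (adjusted p = 0.0041), while SIC1 itself did not pass; the day 22 call of SWI5 was lost without day 22 replicate 1 and with the actin ratio as a covariate. Its day 2 call was made in 7 of 23 alternatives and was lost with each array left out in turn except the 2 of day 9. SWI5 was lower still on day 9 (-1.89, adjusted p = 3.6e-04) and on day 16 (-1.88, adjusted p = 3.7e-04). Both of those calls were made in each of the 23 alternatives.

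Across the 11 arrays, the genes whose log2 values ran most like those of PCL1 were ZDS1 (Pearson r = 0.98), GIC1 (0.98) and RNR1 (0.97). Those most like CLN1 were YNL058C (0.97), CDC9 (0.95) and EDC3 (0.95). For SWI6 they were RHO3, EBP2 and NOP15 (0.97 each), and for SWI4 TFA1 (0.97), PUF6 (0.96) and NPL6 (0.95). Among the 10 genes themselves the closest pairs were SWI4 with MBP1 (0.93), SWI6 with PCL1 (0.87) and SWI4 with SWI6 (0.86), and the most opposed pair was CLN3 with WHI5 (-0.67). These values are descriptions over 11 arrays that share scaling and, for the retentostat days, cultures.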

How the data were processed

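The deposited values are linear array intensities of 9335 probe sets, made with GCOS 1.2 per the submitters' processing notes; the sources used here give neither its settings nor its scaling target. The RNA was hot-phenol extracted total RNA labelled with biotin, per the labels' protocols. The deposited scaling was kept. Of the probe sets, 6504 carry 1 gene in the platform annotation, 328 several and 2443 none, besides 60 controls. Values under 12 were set to 12, log2 was taken, the probe set with the highest mean log2 value was kept for each of 5656 genes, and 59 genes that never exceeded the floor were left out, leaving 5597. Gene names were checked against the S288C assembly R64, and 0 changed.

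limma 3.58.1, run in R 4.3.3, fitted the 5 group means to all 11 arrays together, with Benjamini-Hochberg adjustment over all genes, a threshold of 0.05 and 95% intervals from the moderated spread. The fit treats the arrays of 1 retentostat on different days as independent. The fit was tested before use on simulated data in which all arrays were independent. That setting leaves out the repeated sampling of the retentostats, so it does not test its effect on the calls. The number of arrays limits the precision.

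The genes, lists and tests were chosen with earlier results of these data known. All 10 genes are named. Of each other list, up to 4 genes that passed at day 22 with the largest change are named, as are CDC28, CLB5, CLB6, FAR1, XBP1, RNR1 and SWI5, and up to 3 genes of highest correlation for each of the 10 that passed the F test over the groups. CDC45, RAD27 and PHO85 were named after their values were seen. Some genes of the lists are not reported here. Alternatives were 2 scalings, 2 floors, 2 filters, averaging probe sets, the replicate block, the culture as a random block, only the arrays compared, the actin ratio as a covariate, leaving out the 2 arrays of lowest ratio, and leaving out each array.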

Additional observations from a re-analysis of the deposited data

How the results depend on the processing

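The number of the 10 genes called was recomputed under 23 alternatives. With 1 array left out it lay between 0 and 1 for day 2 against the chemostat, 3 and 7 for day 9, 2 and 5 for day 16 and 1 and 2 for day 22. It lay between 0 and 1 for day 22 against day 2, 0 and 3 for day 22 against day 9, 3 and 6 for the F test over 5 groups, 0 and 6 for that over the retentostat days, and 2 and 7 for the slope. At day 2 the count was 0 with a floor of 1, no filter, the replicate block, only the arrays compared, the actin covariate, or without the 2 arrays of lowest actin ratio. With only the arrays compared it was 3 at day 9, 1 for day 22 against day 2, and 0 over the retentostat days and for day 22 against day 9. With the actin covariate it was 3 at day 16, 0 at day 22 and 3 for the slope. Without the 2 arrays of lowest ratio it was 1 at day 16, 0 at day 22, 2 for the F test over 5 groups and 3 for the slope. Both left 0 for day 22 against day 9 and over the retentostat days. Quantile normalization gave 6 at day 22, scaling to 1 median 4, and either gave 0 for day 22 against day 9 and over the retentostat days. A floor of 50 gave 1 at day 22 and 2 over the retentostat days; a floor of 1 or no filter gave 0 there, 0 for day 22 against day 9 and 3 for the slope. The replicate block gave 4 at day 9 and 6 at day 16, both with WHI5, 1 for day 22 against day 2, 0 for day 22 against day 9, 0 over the retentostat days and 2 for the slope; the random culture block gave 2 over the retentostat days. The labels do not say that a replicate number marks a culture, and same-numbered arrays deviated together with correlations between 0.07 and 0.39 between days. PCL2 at day 9 changed sign to 0.65 without day 9 replicate 1 and was -1.01 without day 9 replicate 2. Other values without a call in the main fit also changed sign in some alternative, among them CLN2 at days 16 and 22, CLN3 at day 2 and SIC1 at day 22. Apart from PCL2 at day 9 without day 9 replicate 1, 1279 values of single genes by comparison and alternative kept their side of the threshold. A further 75 lost and 19 gained a call. Most of the 1279 were not called in the main fit either, and only called values could lose a call, so these counts do not give the share of calls kept. The causes were not tested. Where a left-out array leaves 1 in its group, that array is assumed to vary like the others. Of the 18 other genes named by the rule at day 22, 12 were called with each array left out in turn. With the actin ratio as a covariate, only YHP1, CLB5, MCD1 and PCL5 of the 18 kept the day 22 call. WHI5, CLB6, TOS2 and MCD1 lie at or near the floor on some arrays, which limits their changes; for TOS2 on day 22 the fitted change was -2.04, and -4.40 with a floor of 1.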
